A study of Bos taurus with 30 samples.

Results

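Linker histone H1-4 and 3 genes of histone H2A (H2AC21, H2AC6 and H2AW) were followed across the 30 libraries of peripheral white blood cells (PWBCs) of this series. H1-4 and H2AC21 were given by their Ensembl identifiers, and H2AC6 and H2AW were found by symbol in the gene lists of the study. These 4 genes are members of a rule that names 5, out of 27607 genes in the table of counts. H2AC10, the other gene of the rule, was not analysed here because no table used here pairs its symbol with an identifier of the counts. The genes were chosen on measured values, namely their higher counts after 24 h of storage than at 1 h in jugular blood, so their values in that contrast are given as a description, with no p-value.

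Blood was drawn from 5 estrus-synchronized crossbred beef heifers (Angus and Simmental) a little over a year old, from the coccygeal (tail) vein and the jugular (neck) vein of the same animals. The estrous cycle of all heifers had been set with gonadotropin-releasing hormone, an intravaginal progesterone insert and prostaglandin, so every group shares that treatment and no group was left untreated. Tubes with EDTA were held at 4 °C, and the white cells were taken from the buffy coat with lysis of red cells after 1 h (coccygeal and jugular), or after 3, 6, 8 or 24 h (jugular). Messenger RNA was selected by its poly(A) tail before sequencing. The groups used here were coccygeal 1 h (5 libraries), jugular 1 h (5 libraries), jugular 24 h (5 libraries) and jugular 3-8 h (15 libraries).

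The group of each column came from the supplementary code of the authors, which also gives the heifer (A to E) for the coccygeal 1 h, jugular 1 h and jugular 24 h libraries. The 15 libraries of jugular 3-8 h were the columns that the code assigns to no other group. Their storage time and heifer are given by neither the column names nor the code, so 3, 6 and 8 h were pooled and not told apart. In the order of the columns, 3 of these libraries stand between the jugular 1 h and jugular 24 h columns of each heifer. That order was not taken as a label. The libraries held between 12412619 and 19492274 counted fragments. No 2 of the 30 columns were identical, and even the most alike of the 435 pairs of libraries had a median squared difference 3.03 times that of sampling noise.

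Histones are the proteins around which DNA is wound in the nucleus. The core histones H2A, H2B, H3 and H4 form the spool of the nucleosome, while linker histones such as H1-4 bind where DNA enters and leaves it and help to compact chromatin. Most of these genes stand in clusters and are transcribed mainly in the S phase of dividing cells, when new DNA has to be packed. Their messenger RNAs usually end in a stem-loop bound by SLBP rather than in a poly(A) tail, so libraries made by poly(A) selection mainly record the polyadenylated part of histone transcripts. Most leukocytes in blood are not dividing.

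H1-4 (ENSBTAG00000047206) is annotated in ARS-UCD1.2 on chromosome 23, from 31796098 to 31796757 on the minus strand, with a transcript of 660 bases. H2AC6 (ENSBTAG00000039657) lies on the same strand of chromosome 23, from 31818805 to 31828988, with a listed transcript of 722 bases. The gap between these 2 genes is 22047 bases. H2AC21 (ENSBTAG00000032456) lies on chromosome 3, from 20724190 to 20724582 on the plus strand, with a transcript of 393 bases. H2AW (ENSBTAG00000037964) lies on chromosome 7, from 2573757 to 2575265 on the plus strand, with a transcript of 1509 bases. The members therefore come from 3 separate histone loci. Fragments were counted without regard to strand, and histone genes have near-identical copies, so the division of fragments among copies and neighbours is uncertain.

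H1-4 was scarce in blood processed at 1 h. In jugular blood at 1 h its level was 0.564, 1.52, 0.718, 1.22 and 1.77 CPM (fragments of the gene per 1000000 counted in the library) in heifers A to E, from 11, 28, 11, 21 and 22 fragments. In coccygeal blood at 1 h it was 0.521, 1.05, 1.09, 1.07 and 2.56 CPM in the same order, from 9, 19, 16, 18 and 46 fragments. The ranges of both veins overlapped, and heifer E was highest in both. After 24 h the jugular level was 10.8, 11.9, 8.32, 14.8 and 16.2 CPM, from 128 to 234 fragments. All 5 libraries of 24 h stood above every one of the other 25 libraries. Within heifers, the level at 24 h was between 7.86 and 19.2 times that of the jugular library at 1 h.

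H2AC21, which encodes a core histone of the H2A type, was as scarce as H1-4 at 1 h. Its jugular level at 1 h was 0.770, 0.866, 0.652, 0.929 and 1.05 CPM in heifers A to E, from 10 to 16 fragments. Its coccygeal level at 1 h was 0.752, 0.665, 0.820, 0.716 and 1.90 CPM, from 12 to 34 fragments. The values of heifers A to D fell within the jugular range, while that of heifer E was the highest of the 10 libraries of 1 h. At 24 h the level was 9.80, 10.1, 7.54, 15.4 and 11.6 CPM, which was 11.1 to 16.6 times the level at 1 h of the same heifer. The lowest library of 24 h was 1.96 times the highest library of any time from 3 to 8 h.

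H2AC6, an H2A gene of the large histone cluster, was the most abundant of the 4 genes at 1 h in CPM and per kilobase of transcript. Its jugular level at 1 h was 11.5, 5.20, 9.72, 12.8 and 9.51 CPM in heifers A to E. Its coccygeal level was 9.43, 4.10, 8.75, 12.2 and 11.2 CPM in the same order. Heifer B was lowest and heifer D highest in both veins. At 24 h the level was 18.6, 14.4, 14.9, 22.8 and 18.6 CPM, above all 10 libraries of 1 h. The gene was chosen on its rise at 24 h, and the share of all genes with that separation was not counted. The ratio to the jugular library at 1 h was between 1.53 and 2.77 across heifers, and the largest ratio was that of heifer B, which had started lowest.

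H2AW, an H2A gene that lies outside the large histone cluster, was steady within groups. Its jugular level at 1 h was 4.10, 3.30, 5.15, 4.70 and 3.95 CPM, and its coccygeal level was 3.88, 3.49, 4.31, 5.01 and 3.23 CPM, in heifers A to E. At 24 h it was 8.16, 6.32, 7.86, 8.27 and 7.57 CPM, from 96 to 134 fragments. The 24 h values did not overlap with those of any other group, and heifer B was lowest at 24 h as in the jugular blood at 1 h. Its ratio of 24 h to 1 h ranged from 1.53 to 1.99. The largest ratios of H2AC6 and H2AW within a heifer, 2.77 and 1.99, were below the smallest of H1-4 and H2AC21, 7.86 and 11.1.

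**Figure D1:**
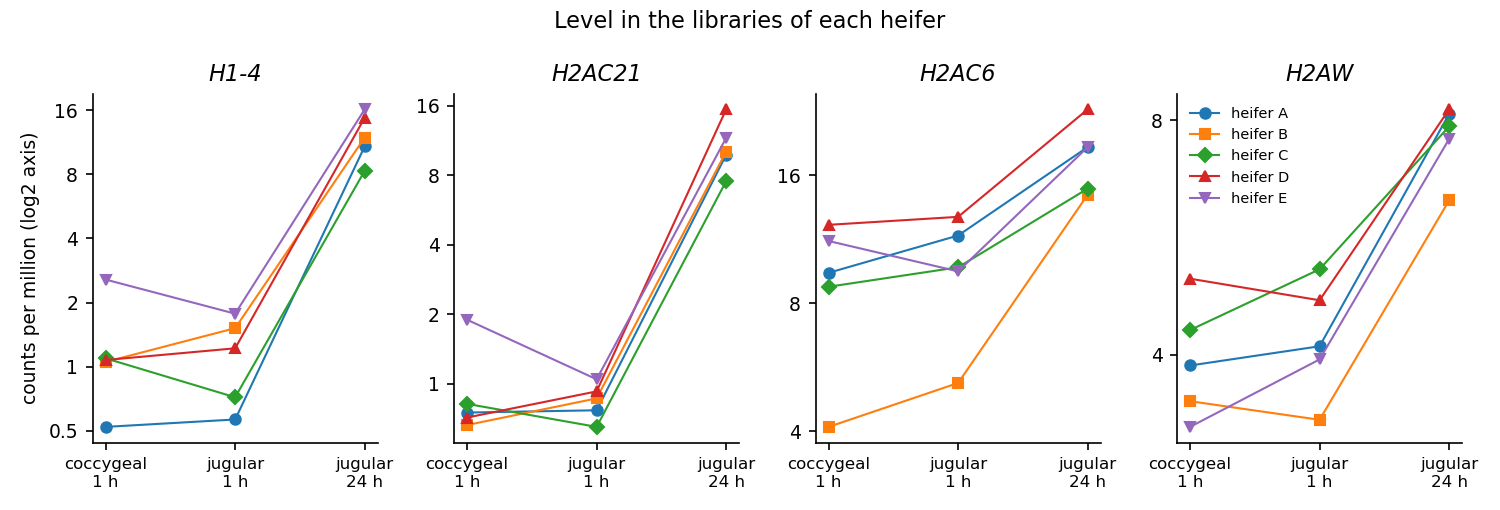
Level of each gene in CPM (vertical axes, log2 scale) in the coccygeal 1 h, jugular 1 h and jugular 24 h library of each of the 5 heifers, with 1 line and marker per heifer. H1-4 and H2AC21 lie at or below 2.56 in all libraries of 1 h and at or above 7.54 at 24 h, whereas H2AC6 and H2AW start higher and move less.

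Fitted on the 10 jugular libraries with the heifer as a block, the edgeR log2 fold change of 24 h against 1 h was 3.45 for H1-4, 3.66 for H2AC21, 0.90 for H2AC6 and 0.85 for H2AW, with DESeq2 standard errors of 0.25, 0.26, 0.15 and 0.20. In size they had the ranks 5, 2, 63 and 79 from the highest of 14018 genes. A gene was counted as called when its false discovery rate was under 0.05 in both edgeR and DESeq2 and its absolute log2 fold change was above 0.5. That rule called 361 genes (2.58% of those tested), of which 203 (1.45%) were higher at 24 h. All 4 members were among the latter, which their choice had fixed and from which nothing is read. H2AW and H2AC6 were the members nearest to the fold threshold, and no member fell outside it. Leaving out heifer A or B brought the calls over all genes down to 156 or 237, and a fit without the heifer as a block called 30, while under each of these settings the fold change of each member moved by less than its SD over heifers.

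All 4 genes passed the filter on low counts, a CPM above 1 in 5 or more libraries. H2AC6 and H2AW exceeded it in all 30 libraries. H1-4 exceeded it in 25 libraries, 20 of them outside 24 h, and H2AC21 in 15 libraries, 10 of them outside 24 h. No member therefore depended on the 24 h libraries to be tested.

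Per kilobase of transcript the order of the genes changed with storage. In jugular blood at 1 h, H2AC6 stood first with 13.5 ± 3.99 CPM per kilobase (SD, n = 5), followed by H2AW with 2.81 ± 0.472, H2AC21 with 2.17 ± 0.384 and H1-4 with 1.75 ± 0.778. The levels of the last 3 lay close together, and neighbours in that order had overlapping ranges. At 24 h H2AC21 had the highest mean, 27.7 ± 7.41 CPM per kilobase, followed by H2AC6 with 24.8 ± 4.74, H1-4 with 18.8 ± 4.74 and H2AW with 5.06 ± 0.520. The ranges of H2AC21, H2AC6 and H1-4 overlapped at 24 h, and H2AW lay below all of them. H1-4 made up between 3.32% and 13.9% of the summed CPM of the 4 genes in jugular blood at 1 h, and between 21.5% and 30.0% at 24 h. The sum itself ran from 10.9 to 19.6 CPM at 1 h and from 38.6 to 61.3 CPM at 24 h in jugular blood.

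The first comparison that did not choose the genes asked whether the vein matters when blood is processed at 1 h. Its jugular libraries were also the baseline of the contrast of 24 h that chose the genes, so it is not wholly independent of that choice. Neither H1-4, H2AC21, H2AC6 nor H2AW was called between coccygeal and jugular blood. With the heifer as a block, the edgeR log2 fold change of coccygeal against jugular blood was 0.07 for H1-4, 0.11 for H2AC21, −0.11 for H2AC6 and −0.09 for H2AW. The adjusted p was 0.9997 in edgeR's quasi-likelihood test for all 4 genes. The background was equally empty: 0 of 14018 genes (0%) were called, by both tools or by either alone, while 278 genes had an unadjusted p under 0.05 in edgeR and 101 in DESeq2.

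The precision of that comparison differed among the genes. The 95% interval of the DESeq2 log2 fold change ran from −0.75 to 0.88 for H1-4 and from −0.83 to 1.01 for H2AC21. At these low counts, differences within those limits were not excluded. It ran from −0.43 to 0.20 for H2AC6 and from −0.52 to 0.36 for H2AW. Paired by heifer, H1-4 was higher in the coccygeal vein in 2 of 5 heifers, H2AC21 in 2, H2AC6 in 1 and H2AW in 2. The sign of the mean change rested on heifer E for H1-4 and H2AC21. Without that heifer it was −0.10 and −0.13, and without heifer C it was −0.03 for H1-4.

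Jugular blood stored for 3 to 8 h held a wide range of H1-4. The 15 libraries ran from 0.891 to 7.57 CPM with a median of 2.07, and 8 of them exceeded the highest jugular library of 1 h. H2AC21 ran from 0.629 to 3.84 CPM with a median of 1.07, and again 8 libraries exceeded the highest jugular library of 1 h. Set against the 10 libraries of both veins at 1 h, 5 libraries of H1-4 and 2 of H2AC21 stood above the highest. That highest library was the coccygeal one of heifer E for both genes, at 2.56 CPM for H1-4 and 1.90 CPM for H2AC21. Most libraries of 3-8 h stayed at or below this 1 library, although 8 of 15 exceeded every jugular library of 1 h. Both genes had a tail of higher values.

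The other 2 genes were read in the same way. H2AC6 ran from 4.27 to 14.9 CPM with a median of 10.4, and 4 of 15 libraries exceeded the highest jugular library of 1 h, and likewise the highest of both veins. H2AW ran from 3.15 to 5.93 CPM with a median of 4.52, and 5 libraries exceeded both of those marks. For both genes 1 library fell below the lowest jugular library of 1 h, as it did for H2AC21. The mean of the 15 libraries was 1.05 times that of jugular 1 h for H2AC6 and 1.09 times for H2AW, against 2.10 times for H1-4 and 1.54 times for H2AC21.

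**Figure D2:**
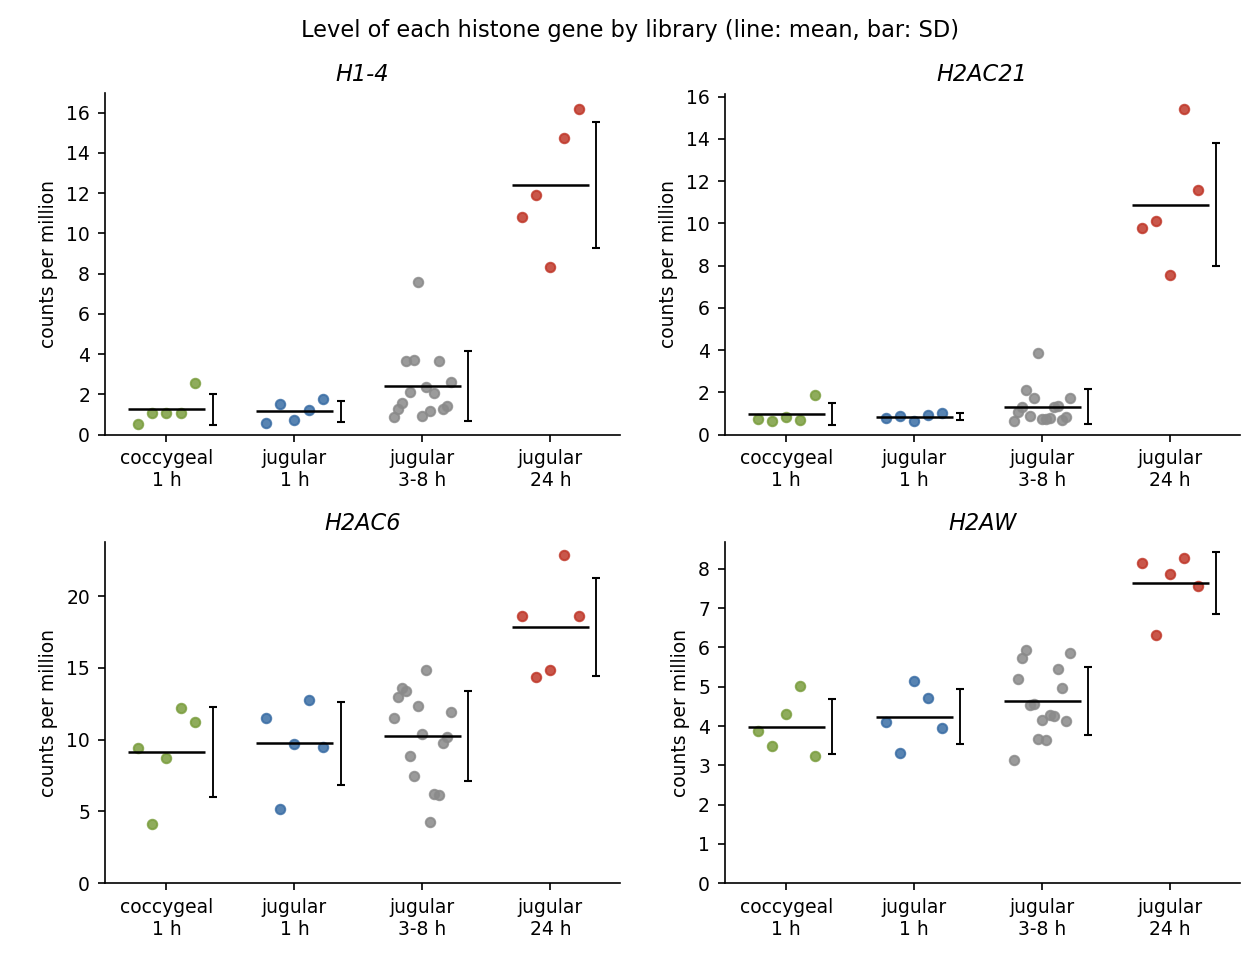
Level of each gene in CPM (vertical axes, starting at 0) in all 30 libraries by group, where points are libraries, horizontal lines are means and vertical bars are SD. The 24 h libraries of H1-4, H2AC21 and H2AW lie above all other points, and the 3-8 h libraries of H1-4 reach up to 7.57.

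The same libraries were high for H1-4 and H2AC21. The 5 libraries with the most H1-4 among the 15 of 3-8 h were also the 5 with the most H2AC21. Of those 5, only 2 were among the 5 highest for H2AC6 and 3 among the 5 highest for H2AW. Whether these libraries share a storage time or a heifer is not known. The library with the most H1-4, at 7.57 CPM, also had the most H2AC21, at 3.84 CPM. Its H2AC6 level of 12.4 CPM had rank 5 and its H2AW level of 3.67 CPM ranked 13th of 15. The next highest library for H1-4 held 3.72 CPM.

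**Figure D3:**
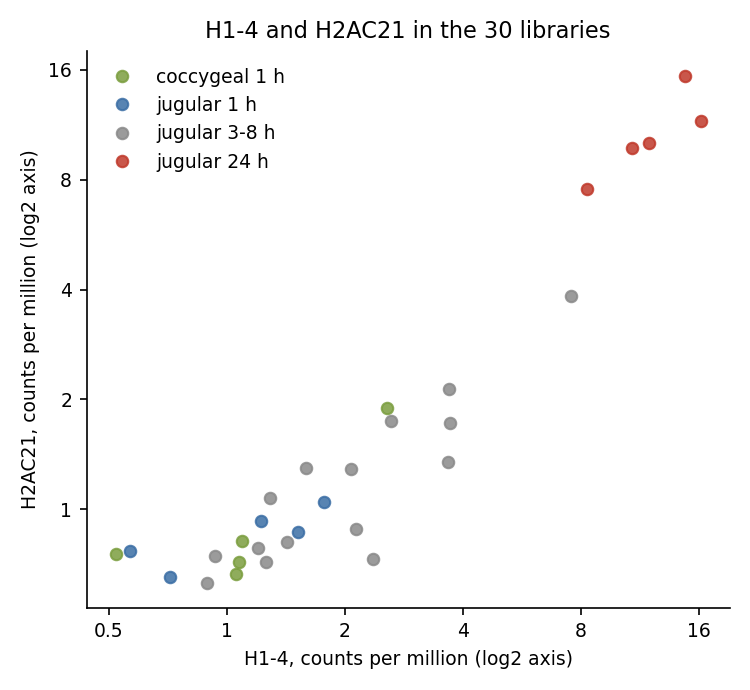
H1-4 (horizontal axis) against H2AC21 (vertical axis) in CPM on log2 scales, with 1 point per library, coloured by group. The 3-8 h libraries spread from the region of 1 h, near 1 for both genes, up to 7.57 and 3.84, and the 24 h libraries lie beyond them.

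Tested against jugular 1 h, none of the 4 genes was called at 3-8 h. The edgeR log2 fold change was 1.08 for H1-4 with a DESeq2 standard error of 0.43. Its unadjusted p was 0.0265 in edgeR and 0.0134 in DESeq2, and its adjusted p was 0.9997 in edgeR's quasi-likelihood test over all genes. The change of H1-4 ranked 14th from the highest of 14018 genes. That of H2AC21 was 0.63 with a standard error of 0.38, and ranked 34th. The values for H2AC6 and H2AW were 0.07 and 0.13, with standard errors of 0.25 and 0.15. No gene of the whole table (0%) was called, although 173 had an unadjusted p under 0.05 in edgeR and 234 in DESeq2, and neither tool alone called any. The 15 libraries come from 5 heifers with 3 libraries each, and the test treats them as independent because their heifers are not given. The same heifers also gave the libraries of 1 h, and that pairing was not used either, so these p-values may be too small or too large. The jugular 1 h libraries also served in the contrast that chose the genes. H1-4 was also named by the study from its own contrast of 8 h, so its 3-8 h values are not wholly independent of how it was chosen.

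The 95% intervals came from the same DESeq2 fit as the p-values. It used neither the heifers nor the pairing, so the intervals may be too narrow or too wide. They were also not adjusted for the number of genes tested. For H1-4 the DESeq2 interval ran from 0.22 to 1.92 log2 units, and for H2AC21 from −0.12 to 1.37. For H2AC6 it ran from −0.41 to 0.57 and for H2AW from −0.16 to 0.42. Although the interval of H1-4 lay wholly on the side of higher levels, the gene was not called. Given these limits and how H1-4 was chosen, no rise is read from its interval. The library with the most H1-4 carried part of the estimates. Without it the log2 fold change was 0.84 for H1-4 and 0.42 for H2AC21.

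The 15 libraries of 3-8 h were also set against coccygeal 1 h. This contrast shares those libraries with the one before, so both sets of values are given side by side and neither supports the other. The coccygeal libraries took no part in the contrast of 24 h that chose the genes, but the study named H1-4 from libraries of 8 h, and vein and storage time change together here. The log2 fold change was 0.94 for H1-4, 0.43 for H2AC21, 0.17 for H2AC6 and 0.22 for H2AW, with DESeq2 standard errors of 0.44, 0.40, 0.26 and 0.15. The unadjusted p of H1-4 was 0.0532 in edgeR and 0.0333 in DESeq2. None of the 4 was called, and neither was any of the 14018 genes (0%), by both tools or by either alone, while 182 genes in edgeR and 220 in DESeq2 had an unadjusted p under 0.05. Without the coccygeal library of heifer E the change was 1.37 for H1-4 and 0.83 for H2AC21. Without the highest 3-8 h library it was 0.70 and 0.22. The same limits of heifers that are not given and are shared between the groups hold here.

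**Figure D4:**
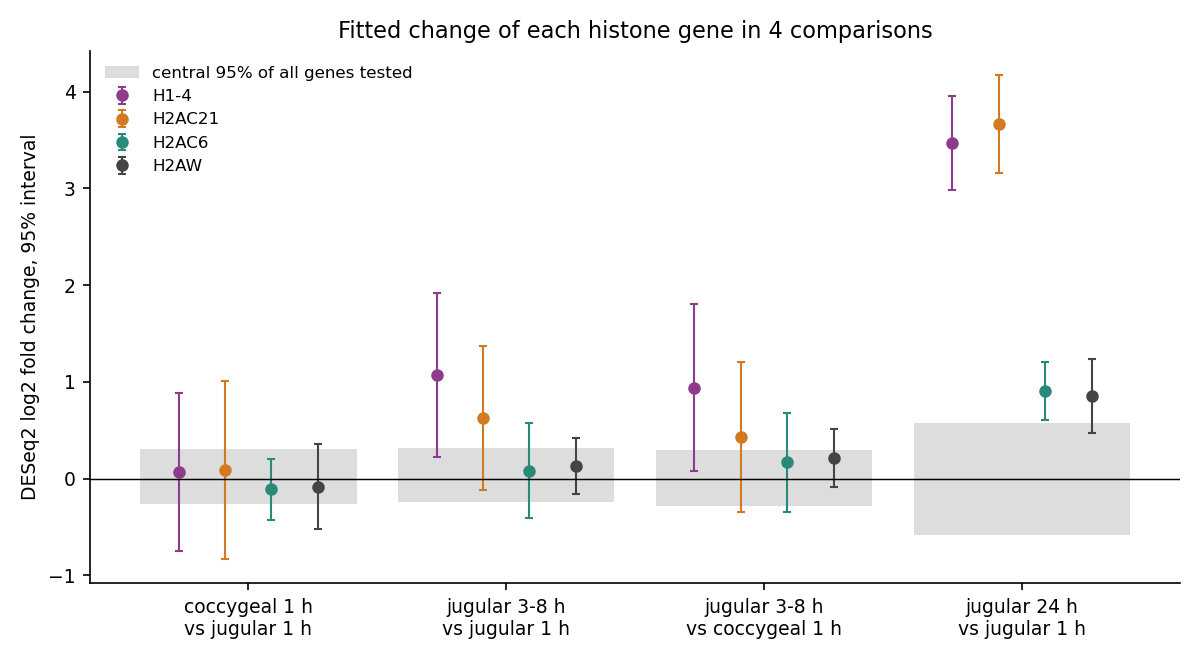
DESeq2 log2 fold change (vertical axis) of each gene in 4 comparisons, with 95% intervals as bars and the central 95% of all genes tested as grey bands. Intervals of H1-4 and H2AC21 are wide in the first 3 comparisons, and in the last one, which chose the genes, the points of all 4 lie above the band's upper edge of 0.58, with the interval of H2AW reaching down to 0.47.

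Between 3-8 h and 24 h the libraries of H1-4, H2AC21 and H2AW did not overlap. The lowest library of 24 h was 1.098 times the highest library of 3-8 h for H1-4, 1.96 times for H2AC21 and 1.07 times for H2AW. For H2AC6 the ratio was 0.968 and 4 of 5 libraries of 24 h lay above every library of 3-8 h. Such a separation was seen in 10 of 14018 genes (0.0713%), and the same number (0.0713%) had all libraries of 24 h above each of the other 25. These libraries of 24 h are those that chose the genes, so the separation is a description. For H1-4 the closest pair was the 24 h library of heifer C and the highest 3-8 h library, both with 128 fragments. Their exact Poisson intervals, 6.94 to 9.89 CPM and 6.32 to 9.00 CPM, overlap, and they cover counting error only.

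The neighbours of each gene were read next, since strand was not used in counting. H2AC6 and H2BC4, a gene of core histone H2B, stand on opposite strands of chromosome 23 with a gap of 279 bases. H2BC4 held 8.84 ± 1.41 CPM in jugular blood at 1 h, 8.83 ± 1.62 at 3-8 h (n = 15) and 13.2 ± 1.37 at 24 h (SD, n = 5 otherwise). Its log2 fold change of 24 h against 1 h was 0.59, beside 0.90 for H2AC6. H2AW and H2BU1, another H2B gene, stand on opposite strands of chromosome 7 with a gap of 262 bases. H2BU1 held 0.851 ± 0.168 CPM at 1 h and 1.80 ± 0.322 at 24 h in jugular blood, a log2 fold change of 1.08 beside 0.85 for H2AW. H2BC4 was called by both tools, and H2BU1 was not, since DESeq2 gave it no adjusted p. At 3-8 h neither partner was called, with a log2 fold change of 0.21 for H2BU1 and near 0 for H2BC4.

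For H2AC21 and H1-4 the nearest genes with a symbol in the tables lie farther off. The nearest to H2AC21 is SV2A, a synaptic vesicle protein gene at 14081 bases, which held 78.4 ± 10.9 CPM at 1 h and 90.1 ± 12.95 at 24 h in jugular blood. Its log2 fold change of 0.20 was not called. The nearest to H1-4 is H4C4, a gene of core histone H4 at 20809 bases, which held 2.41 ± 0.511 CPM at 1 h and 4.97 ± 1.55 at 24 h. Its log2 fold change was 1.00 against 3.45 for H1-4. In the gene list of another assembly, ARS-UCD2.0, H2AC20 lies next to H2AC21 and H2BC5 next to H1-4. Neither has an identifier in the tables used here.

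Likeness of profile was measured by the root mean square difference over the 30 libraries of log2 CPM centred on each gene's mean. The gene most like H1-4 among 14017 others was H2AC21, with a difference of 0.44 log2 units, and the reverse also held. The median of all genes lay 1.33 from H1-4 and 1.34 from H2AC21. Next to H1-4 came ENSBTAG00000052895 at 0.50, H2BC18 at 0.52, H2BC12 at 0.53 and ENSBTAG00000051730 at 0.55. The same 5 places around H2AC21 were filled by H1-4, H2BC12 at 0.53, H2BC18 at 0.59, ENSBTAG00000051730 at 0.63 and ENSBTAG00000052895 at 0.63. Both unnamed genes were also highest at 24 h, at 2.77 ± 0.715 CPM against 0.267 ± 0.220 in jugular blood at 1 h for ENSBTAG00000052895, and at 35.7 ± 13.03 against 8.43 ± 3.54 for ENSBTAG00000051730. H2AW and H2AC6 ranked 35th and 66th in likeness to H1-4, and 26th and 27th to H2AC21. Since a shared rise at 24 h dominates this measure, genes that were low at 1 h and high at 24 h come first by construction.

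The other clustered histone genes with an identifier, 11 of H2B, H3 and H4, were picked by the study as higher at 24 h in these same samples, so their direction is not independent evidence. Their log2 fold change of 24 h against 1 h had a median of 1.67 and ran from 0.59 for H2BC4 to 3.69 for H4C3, beside a median of 0.01 over all genes tested. By the rule of both tools 5 were called higher, namely H2BC4, H2BC12, H2BC13, H2BC14 and H4C4, where 1.45% of all genes were, and the way the list was picked leaves nothing to read from that count. For 5 others (H2BC18, H2BU1, H3C6, H4C3 and H4C8) the independent filtering of DESeq2 on low means left no adjusted p, and H4C14 missed its threshold. H4C3 reached 2.67 ± 1.23 CPM at 24 h from 0.203 ± 0.127 at 1 h, and H2BC12 reached 5.18 ± 1.68 CPM from 0.822 ± 0.349. In size of change H1-4 and H2AC21 stood between H4C3 and H2BC18, the histone genes with the largest values, and H2AC6 and H2AW stood above only H2BC4 and H4C14. H4C3 and H2BC18 each had only 2 to 5 fragments per library in jugular blood at 1 h. Their DESeq2 standard errors at 24 h were 0.52 and 0.58, so the order among these large changes is uncertain.

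At 3-8 h none of the 11 was called against jugular 1 h. Their log2 fold changes had a median of 0.25, against 0.01 for all genes, and were above 0 for 10 of 11. The jugular 1 h libraries of this contrast are also those of the contrast in which the study picked the 11 genes. Against coccygeal 1 h none was called either, the median was 0.26, against 0.01 for all genes, and 10 of 11 were above 0. Both contrasts use the same libraries of 3-8 h, so neither supports the other. The largest against jugular 1 h were 1.30 for H4C3 and 1.18 for H2BC18, beside 1.08 for H1-4, with DESeq2 standard errors of 0.60, 0.64 and 0.43. H4C3, like H1-4, was also named by the study from its own contrast of 8 h, so its value at 3-8 h is not independent of that choice. In the library with the most H1-4, 5 of these 11 genes were also at their highest among the 15 libraries, H2BC4, H2BC12, H2BC18, H4C3 and H4C8. H4C14 was at its lowest there, at 1.01 CPM. Between the veins none of the 11 was called and the median was −0.09.

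**Figure D5:**
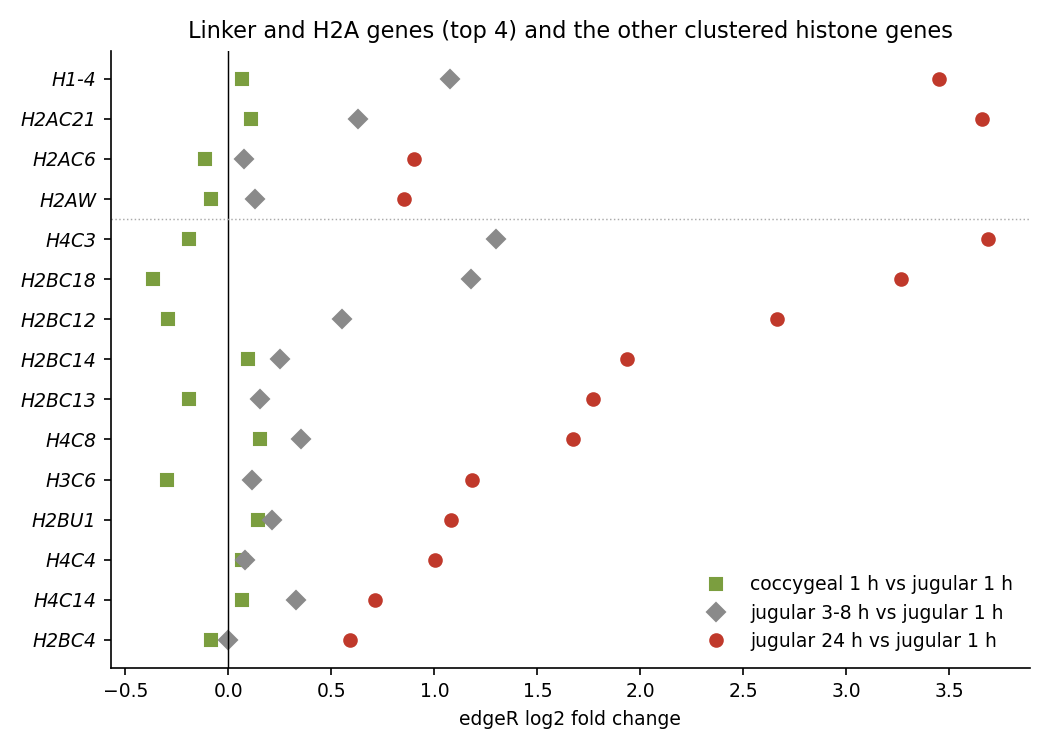
edgeR log2 fold change (horizontal axis) of the 4 linker and H2A genes, above the dotted line, and of 11 other clustered histone genes, below it, in 3 comparisons marked by shape and colour. In the contrast of 24 h all 15 lie at or above 0.59, and at 3-8 h the largest values belong to H4C3, H2BC18 and H1-4.

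Only 1 further gene of the linker and H2A families had an identifier, MACROH2A2, a macroH2A variant known from silenced chromatin. It held 1.42 ± 0.320 CPM in jugular blood at 1 h, 1.93 ± 0.513 at 3-8 h (n = 15) and 1.98 ± 0.379 at 24 h, and it was called in no comparison. Its coccygeal level was 1.88 ± 0.253 CPM. In contrast to H1-4 and H2AC21, its 24 h libraries overlapped with those of every other group.

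Few listed genes of histone supply had an identifier, 2 of 14 for the processing and transcription of histone messenger RNA, 5 of 16 for histone chaperones and 2 of 20 for S phase and division. None of these 9 was called at 24 h, where 2.58% of all genes were, so that 0 of 9 is near the background and nothing is read from it. SLBP, which binds the stem-loop of histone messenger RNA, held 81.3 ± 9.72 CPM at 1 h and 83.4 ± 7.20 CPM at 24 h in jugular blood. SLBP and CSTF2, a factor in 3′ end formation, were not called in any comparison, and their log2 fold changes at 24 h were 0.04 and 0.07. Of 5 histone chaperones and chromatin assembly genes (ASF1A, SSRP1, RBBP7, IPO4 and UBN1) none was called, with a median of 0.08 at 24 h and the largest value, 0.32, for IPO4, which passed both tools' false discovery rate but not the fold threshold. Both genes of S phase and division with an identifier, MKI67 and CDT1, were not called. MKI67, a marker of cycling cells, held 432 ± 79.5 CPM at 1 h and 358 ± 86.7 at 24 h, a log2 fold change of −0.28.

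Markers of white cell types differed between the same libraries. Of 8 listed T cell markers, 4 had an identifier (CD2, CD4, CD8A and IL7R). All 4 were called lower at 24 h, where 158 of 14018 genes (1.13%) were, by 0.60 to 0.90 on the log2 scale. Their summed level ran from 544 to 791 CPM at 1 h and from 266 to 479 CPM at 24 h in jugular blood. Identifiers of all markers came only from supplementary lists of the study, which hold results of its contrast of 24 h against 1 h. Which markers could be named is thus not independent of that contrast, and nothing is read from the counts called. Of 3 monocyte markers, CD14 and VCAN were called lower and CD68 was not, and their sum ran from 304 to 560 CPM and from 199 to 353 CPM. PPBP, the 1 platelet marker, was called higher and ran from 427 to 818 CPM at 1 h and from 755 to 1229 CPM at 24 h. The B cell marker CD79A (439 to 559 and 477 to 696 CPM), the cytotoxic markers FCGR3A and GZMB (138 to 228 and 114 to 226 CPM summed) and KIT (12.1 to 28.5 and 9.84 to 22.8 CPM), a mast cell and progenitor gene, were not called. GZMB had the largest log2 fold change of these markers, −1.47 with a standard error of 0.58, from 15.7 ± 12.7 to 7.03 ± 9.71 CPM, while FCGR3A had −0.02. KIT had −0.37 and passed both tools' false discovery rate but not the fold threshold. None of these markers was at 0 in any group, and neutrophil, red cell and general leukocyte markers of the list were not analysed here. The part of these differences in the histone levels was not tested. In bulk samples, fewer cells of a type and less RNA per cell cannot be told apart.

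At 3-8 h none of those markers was called. The 4 T cell markers had log2 fold changes between −0.14 and −0.12 against jugular 1 h, and PPBP had 0.28. Against coccygeal 1 h the T cell markers lay between −0.31 and −0.25, and PPBP had −0.002. The library with the most H1-4 had a summed T cell marker level of 723 CPM, the second highest of the 15, and a PPBP level of 642 CPM, which ranked 13th. Its summed cytotoxic markers, 129 CPM, and its KIT level, 12.0 CPM, both ranked 14th, and its monocyte sum of 319 CPM and CD79A level of 545 CPM ranked 9th and 4th. The first 2 of these 6 levels lay outside the range of the 24 h libraries and the other 4 within it. The part of these levels in the histone values of this library was not tested.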

How the data were processed

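RNA of PWBCs was sequenced in 30 libraries. Per the labels and methods, the authors used cutadapt 2.8 for adapters, HISAT2 2.2.0 for alignment to ARS-UCD1.2, SAMtools 1.10 for the alignments and featureCounts (Subread 2.0.1) for counting fragments in each Ensembl gene, without use of strand. Secondary alignments and duplicates were removed by the authors before counting. They deposited raw counts, not normalized, and all 30 columns were used here. The members and gene lists were chosen with earlier results of these data known. The supplementary tables gave 1738 genes a symbol, a length and coordinates. Named genes were the members, their nearest named genes, list genes and the 5 most alike.

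CPM used the library total. Genes with CPM above 1 in at least 5 of 30 libraries were tested (14018). edgeR 4.0.16 (quasi-likelihood, library size scaling, robust, older fitting method) and DESeq2 1.42.0 (Wald test) were run in R 4.3.3 on the libraries of each comparison, with Benjamini-Hochberg adjustment over all genes. The heifer was a block where known. Libraries of the same heifer deviated together, with correlations of 0.44 to 0.82 between the veins and 0.53 to 0.67 between 1 h and 24 h. Log2 CPM used a prior count of 2. Alternatives were another scaling, each tool alone, other filters, no fold threshold, the newer edgeR fit, no block, 1 fit of all libraries and leaving out libraries.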

Additional observations from a re-analysis of the deposited data

Results flagged for a closer look

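The coccygeal 1 h library of heifer E stood apart from the other 4 of its group for H1-4, at 2.56 CPM (46 fragments, exact Poisson 95% interval 1.88 to 3.42) with the next library at 1.09 CPM. The same library stood apart for H2AC21, at 1.90 CPM (34 fragments, interval 1.31 to 2.65) with the next at 0.820 CPM. The gap to the nearest library was compared with the range of the group by Dixon's criterion in 20 sets of 5 values of the 4 genes, of which 2 exceeded it, and chance exceeds it in about 1 of 20 sets. Both belong to 1 library and are not independent. In that library 6 of the 11 other clustered histone genes were also at their highest among the 5 coccygeal libraries, while H4C14 (0.948 CPM) and H2AW (3.23 CPM) were at their lowest. Its summed T cell markers (770 CPM) were the third of 5 and its PPBP level (627 CPM) was the lowest. The part of these values in the histone levels was not tested.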

How the results depend on the processing

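Calls for the 4 genes between the veins and at 3-8 h did not change under any alternative. The sign of small log2 fold changes did in leave-out fits. Between the veins H1-4 ran from −0.10 to 0.24 and H2AC21 from −0.13 to 0.23 without 1 heifer. H2AC6 at 3-8 h ran from −0.087 to 0.19 without 1 jugular 1 h library and from −0.021 to 0.29 against coccygeal 1 h without 1 of those libraries, and in both cases heifer B turned it. Leaving out each 3-8 h library in turn was added after seeing the data and turned no sign. It gave 0.84 to 1.14 for H1-4 and 0.42 to 0.68 for H2AC21 against jugular 1 h. The count of 361 genes called at 24 h was 1301 with no fold threshold, 156 to 396 without 1 heifer, and 30 without the heifer as a block. In the vein comparison the fit without the block called 0 genes. No paired analysis was run at 3-8 h because neither the names nor the code give the heifers of those columns. A pairing read from the order of the columns was not tested. At 24 h the members ran from 3.29 to 3.60 for H1-4, 3.54 to 3.71 for H2AC21, 0.78 to 0.97 for H2AC6 and 0.82 to 0.92 for H2AW over 13 alternatives. TMM scaling moved no group mean of the 4 genes by its SD. With a prior count of 0.5, 3 of the 5 genes most like H1-4 and 3 of those most like H2AC21 remained. Depth limits H1-4 and H2AC21 at 1 h, where 9 to 46 fragments stand behind each value.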
